A study of Mus musculus with 9 samples.

Results

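The unfolded protein response and the integrated stress response are described here across 9 RNA libraries of sorted mouse haematopoietic stem cells (HSCs), the self-renewing bone marrow cells from which all blood lineages arise. The genes were chosen by symbol, as known sensors, transcription factors and targets of both responses; the choice used no threshold on their values but was made with earlier results of these data known. All 38 were among the 19454 genes listed, and 37 of them had enough counts to be among the 14461 genes tested. Each was placed by the branch in which it acts or that is best known to drive it. That put 8 with IRE1 and XBP1, 12 with ATF6 and 5 with ATF6 and XBP1 jointly. The remaining 13 went with PERK and ATF4 or the kinases parallel to PERK. The XBP1, ATF6 and PERK-ATF4 groups thus hold sensors as well as targets, and counts and medians by branch cover both.

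The study compared 3 groups of 3 libraries, all from wild-type mice. In the spermidine group 2 brain regions named mPFC and PAG, abbreviations in common use for the medial prefrontal cortex and for the periaqueductal grey of the midbrain, were inhibited chemogenetically and the mice also received spermidine, a polyamine. In the inhibition group the same regions were inhibited without that supplement, and the control group was named only as control. Chemogenetic inhibition silences neurons through a designed receptor that answers to a given drug. The library names of both inhibited groups carry the letters AAV, while the vector, the driver of the receptor, the drug, and the age of the mice are not given in the sources used here. Each library was made from 1500 sorted cells with 12 cycles of PCR, and the labels do not state that replicates are separate mice, so p-values measure the spread between these libraries, which may be technical.

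Proteins that fold in the endoplasmic reticulum (ER) are watched over by 3 membrane sensors. IRE1 (gene Ern1) splices the Xbp1 messenger RNA so that it encodes an active transcription factor, ATF6 is cut in the Golgi to release its own transcription factor domain, and PERK (gene Eif2ak3) phosphorylates the initiation factor eIF2, which slows translation while favouring translation of Atf4. The kinases HRI (Eif2ak1) and GCN2 (Eif2ak4) phosphorylate the same factor on haem shortage or amino acid shortage. HSCs are known for a low rate of protein synthesis and for sensitivity to misfolded protein. Splicing of Xbp1, cleavage of ATF6, phosphorylation and translation are not seen in counts per gene, so every value below is a transcript level.

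ATF6, together with NF-Y, binds the ER stress response element (ERSE), and ATF4, as a dimer with C/EBP family proteins, binds a composite C/EBP-ATF element. Their letters were searched on both strands of RefSeq promoters (GRCm38.p6, 250 bases before to 50 after the start of each gene), which were matched for 34 of the 38 genes, all but Hyou1, Manf, Atf6 and Ppp1r15b. The ERSE letters, CCAAT and CCACG with 9 bases between them, stood in 8 of the 34 promoters and in 39 of all 32851 promoters (0.119%). None of the 8 was among the 12 PERK-ATF4 genes with a promoter, 4 were among 9 ATF6 genes, 3 among 5 jointly driven genes and 1 among 8 XBP1 genes. The 9 sites are shown because they stood in 8 ER genes and in no PERK-ATF4 gene searched. The letters were not used to choose the genes, but the genes were placed in branches by their known roles and drivers. The split between branches therefore follows in part from that placing and is no test of it. Each is written on the strand that carries CCAAT, with 10 bases on either side, and the fixed letters are in capitals.
Hspa5 (chr2:34772015-34772053, gene on the plus strand): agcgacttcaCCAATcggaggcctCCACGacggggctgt
Calr (chr8:84847065-84847103, gene on the minus strand): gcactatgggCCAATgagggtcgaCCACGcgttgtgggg
Hsp90b1, far site (chr10:86705628-86705666, gene on the minus strand): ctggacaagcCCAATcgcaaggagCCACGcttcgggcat
Hsp90b1, near site (chr10:86705523-86705561, gene on the minus strand): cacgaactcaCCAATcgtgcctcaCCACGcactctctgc
Canx (chr11:50325790-50325828, gene on the minus strand): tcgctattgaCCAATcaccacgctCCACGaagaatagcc
Pdia6 (chr12:17266481-17266519, gene on the plus strand): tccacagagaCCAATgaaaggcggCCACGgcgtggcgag
Dnajc3 (chr14:118937817-118937855, gene on the plus strand): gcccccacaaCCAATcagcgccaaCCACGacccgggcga
Creld2 (chr15:88819510-88819548, gene on the plus strand): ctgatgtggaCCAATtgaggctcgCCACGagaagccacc
Syvn1 (chr19:6046522-6046560, gene on the plus strand): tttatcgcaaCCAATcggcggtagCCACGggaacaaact

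The C/EBP-ATF letters TGATGNAA stood in the promoters of Asns, Chac1, Herpud1 and Trib3 and in 1304 of all promoters (3.97%). The compact form of the ERSE, ERSE-II (ATTGG and CCACG with 1 base between them), stood in those of Dnajb11 and Herpud1 and in 12 of all (0.0365%). The XBP1 element letters TGACGTGG stood in none of the 34, against 222 of all promoters (0.676%), which says only that these letters are not in these windows. Herpud1 was the only gene with an ER element and a C/EBP-ATF element, and they do not overlap in its promoter. The 140 bases before its start are shown in full, with the C/EBP-ATF letters (on the opposite strand) and then the ERSE-II letters in capitals, beside the site in Asns, the metabolic ATF4 target of the 38 with the largest rise after inhibition.
Herpud1 (chr8:94386289-94386428, plus strand): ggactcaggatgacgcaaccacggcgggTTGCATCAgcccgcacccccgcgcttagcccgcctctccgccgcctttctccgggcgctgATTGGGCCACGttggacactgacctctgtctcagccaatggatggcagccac
Asns (chr6:7693215-7693242, gene on the minus strand, written on that strand): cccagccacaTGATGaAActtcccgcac
A match of letters is a description and not a measured binding site. Beyond the 8 genes shown, 29 other genes carried the ERSE letters, and of the 10 that were tested 3 were higher, 3 were lower and 4 did not pass in inhibition against control.

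Libraries held 16096276 to 25360256 estimated counts, so a floor of 3 counts corresponds to 0.118 to 0.186 CPM (counts scaled to a common library size). The libraries of the 3 groups differed in markers of other cells, which bears on every comparison below. Summed over the plasma and B cell list, 17 genes, the level was 1770 to 1911 CPM in spermidine libraries, 4674 to 5088 CPM in inhibition libraries and 87.7 to 89.7 CPM in control libraries. The neutrophil granule list summed to 22977 to 23635 CPM in spermidine, 63115 to 65013 CPM in inhibition and 6335 to 6582 CPM in control libraries. Megakaryocyte and platelet genes summed to 204 to 215 CPM in spermidine, 192 to 206 CPM in inhibition and 3139 to 3181 CPM in control libraries. The 18 HSC markers summed to 689 to 697 CPM in spermidine, 619 to 628 CPM in inhibition and 608 to 621 CPM in control libraries, but their makeup differed. Procr, a surface marker of HSCs, was at 7.23 to 8.02 CPM in spermidine, 3.62 to 4.77 CPM in inhibition and 0.0606 to 0.161 CPM in control libraries, the last near the floor, and Hlf, an HSC transcription factor, was at 36.8 to 38.2 CPM in spermidine, 21.6 to 23.1 CPM in inhibition and 2.18 to 2.89 CPM in control libraries. Slamf1 ran the other way, with 13.7 ± 1.08 CPM in spermidine, 17.6 ± 2.35 CPM in inhibition and 104 ± 3.68 CPM in control libraries (SD, n = 3 each). The control libraries therefore stand apart in markers of the labelled cell type. The surface markers of the sort, and whether the gate was the same in all groups, are not given in the sources used here. The comparison of spermidine with inhibition does not use the control libraries. Those groups also differ in Procr, Hlf and the plasma cell and neutrophil sums, so the unknown gate bears on that comparison too.

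**Figure D1:**
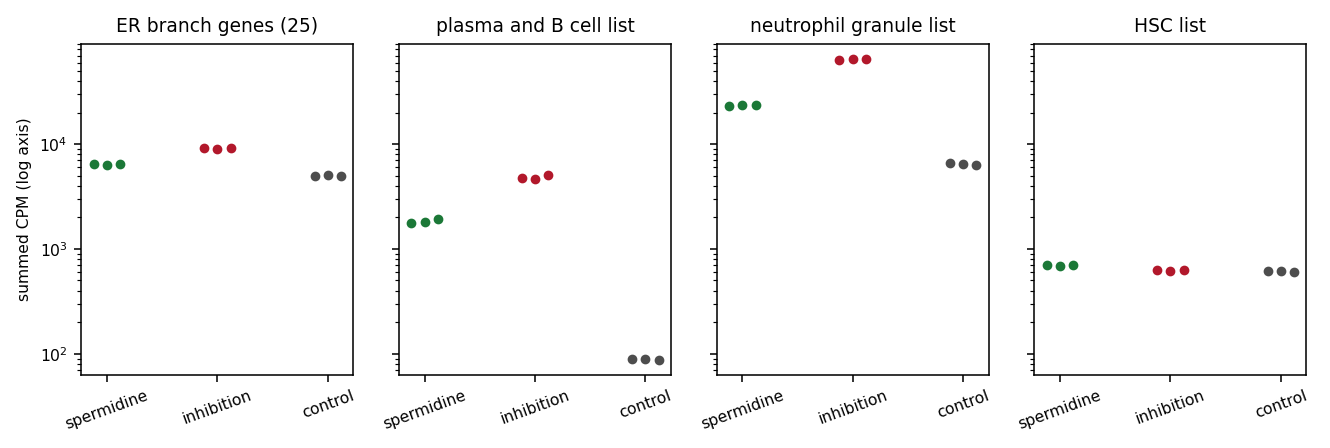
Summed CPM (log axis) of the 25 ER genes (XBP1, ATF6 and jointly driven) and of 3 marker lists, 1 point per library, by group. The ER genes summed to 6307 to 6505 CPM in spermidine, 8977 to 9212 CPM in inhibition and 5003 to 5022 CPM in control libraries, and the plasma and neutrophil lists have the same order of groups.

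Per length, in the deposited TPM (an abundance corrected for transcript length) averaged over the 9 libraries, the levels of the 38 genes spanned several orders of magnitude. Manf, a secreted ER chaperone cofactor, led with 779 TPM, followed by Sec61b, a subunit of the translocon through which proteins enter the ER, with 692 TPM and Hspa5 (BiP, the main ER chaperone) with 208 TPM. That order differed by group, since in control libraries Sec61b (640 ± 25.9 TPM) was above Manf (515 ± 8.10 TPM) and Ppp1r15a (206 ± 6.81 TPM) above Hspa5 (161 ± 4.04 TPM; SD, n = 3). The sensors were low, with Ern1 at 1.16, Eif2ak3 at 1.09, Eif2ak4 at 1.04, Atf6b at 0.819 and Atf6 at 0.699 TPM. Chac1, a glutathione-degrading ATF4 target, was the lowest at 0.116 TPM and was not tested, with 6, 11 and 7 counts in spermidine, 5, 7 and 3 in inhibition and 0, 0 and 4 in control libraries. Together the 38 genes took 0.760% to 0.772% of counts in spermidine, 0.883% to 0.906% in inhibition and 0.518% to 0.525% in control libraries.

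**Figure D2:**
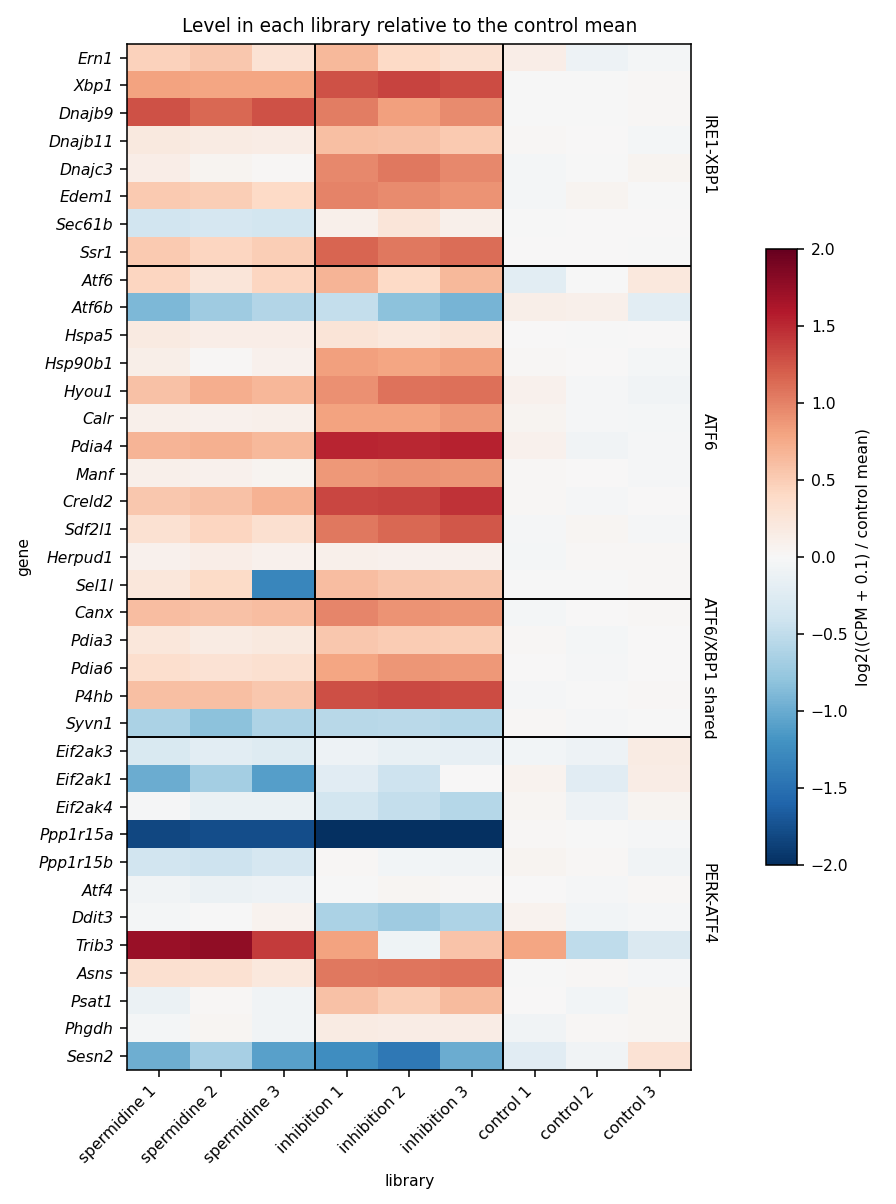
log2 of CPM plus 0.1 over the control mean for the 37 tested genes (rows, by branch) in each library (columns, by group), with colours ending at -2 and 2. Most ER genes are darkest red in the inhibition libraries and paler in the spermidine libraries, Sel1l stands apart in spermidine replicate 3, and Ppp1r15a is blue in all 6 libraries of inhibited mice.

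Inhibition and control libraries were compared first. Inhibition cannot be told apart here from the AAV named in its library names, or from any difference in drug, handling or sort gate. ER chaperone, disulfide isomerase and translocon genes were higher in inhibition than in control libraries. Of the integrated stress response, Ppp1r15a, Ddit3, Eif2ak4 and Sesn2 were lower, Asns, Psat1 and Phgdh were higher, and Atf4 did not pass. Of 37 genes, 26 rose and 6 fell (edgeR quasi-likelihood test, adjusted p under 0.05), where 36.2% of all tested genes rose and 36.1% fell. The ER branches and the PERK-ATF4 group differed in their counts. All 8 XBP1 genes rose, 11 of 12 ATF6 genes rose and 1 fell, 4 of 5 jointly driven genes rose and 1 fell, and of 12 PERK-ATF4 genes 3 rose and 4 fell. The median log2 fold change was 0.94 for XBP1, 0.82 for ATF6, 0.85 for jointly driven and -0.09 for PERK-ATF4 genes (0.00 on log2(TPM + 1)), against 0.02 for all tested genes. A rise of at least 2-fold was reached by 8 genes, namely Pdia4, Creld2, Xbp1, P4hb, Sdf2l1, Ssr1, Asns and Hyou1 (15.0% of all tested genes rose so far), and a fall of that size by Ppp1r15a and Sesn2 (14.0% of all tested genes). In bulk libraries such as these, fewer cells of a type and less RNA per cell cannot be told apart. The ER genes rose in the libraries with the higher plasma cell and neutrophil granule sums given above, where 13 of 14 tested plasma and B cell genes and 15 of 15 neutrophil granule genes rose and none fell. Of the plasma and B cell list, Irf4 and Pax5 were at 0 in at least 1 library and no gene of either list was at 0 in all control libraries. Monocyte and macrophage genes (629 to 654 CPM in spermidine, 1252 to 1274 CPM in inhibition and 656 to 678 CPM in control libraries) and basophil and mast cell genes (260 to 273 CPM in spermidine, 448 to 453 CPM in inhibition and 229 to 241 CPM in control libraries) were also highest in inhibition libraries. The part of those cells in the rise was not tested.

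Among the sensors and factors of the ER branches, Xbp1 (chr11:5520659-5525893, mm10) changed most. It had 138, 146 and 140 CPM in inhibition libraries, against 56.6, 56.5 and 57.5 CPM in control libraries. The groups do not overlap, and the log2 fold change was 1.31 (SE 0.035, adjusted p = 1.79e-15). Its upstream sensor Ern1 had 5.34, 4.48 and 4.20 CPM in inhibition and 3.70, 3.16 and 3.30 CPM in control libraries (log2 fold change 0.46, SE 0.13), a call that was lost on TPM (limma on log2(TPM + 1), 0.03, adjusted p = 0.909). Atf6 rose (log2 fold change 0.56, SE 0.12) to 6.96 ± 0.708 CPM in inhibition, against 4.66 ± 0.681 CPM in control libraries (SD, n = 3 each), with no overlap. Its paralog Atf6b fell (-0.79, SE 0.19), with 1.74 ± 0.311 CPM in inhibition and 2.97 ± 0.383 CPM in control libraries.

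Disulfide isomerases, which form and rearrange the cysteine bonds of secreted proteins, held the largest rise of the 38 genes. Pdia4 had 57.4, 56.9 and 58.5 CPM in inhibition libraries, against 21.3, 19.0 and 19.7 CPM in control libraries (log2 fold change 1.53, SE 0.049, adjusted p = 2.54e-14). P4hb, the founding member of that family, had 453, 465 and 462 CPM in inhibition and 183, 185 and 190 CPM in control libraries (1.31, SE 0.030). Both genes were above every control library in every inhibition library. Pdia6 rose by 0.85 (SE 0.032). Pdia3, which works with the lectin chaperones on glycoproteins, rose by 0.51 (SE 0.033) on counts, but the length that converts its counts to TPM differed between the groups by 0.75 on the log2 scale and on log2(TPM + 1) it was lower (-0.19).

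Chaperones rose to unequal degrees. Hspa5 had 655, 636 and 655 CPM in inhibition libraries, against 550, 546 and 549 CPM in control libraries, a log2 fold change of 0.24 (SE 0.026, adjusted p = 3.11e-07). The change is small but exceeds the spread within groups. Hsp90b1 (GRP94), the ER member of the HSP90 family, had 517, 505 and 522 CPM in inhibition and 299, 293 and 286 CPM in control libraries (0.81, SE 0.032). Hyou1, a large HSP70-like nucleotide exchange factor, had 151, 170 and 171 CPM in inhibition and 84.6, 78.8 and 76.2 CPM in control libraries (1.04, SE 0.052). The lectin chaperones Calr (0.83, SE 0.031) and Canx (0.92, SE 0.030), which hold glycoproteins until they fold, rose to a like extent. Canx had 1357, 1285 and 1267 CPM in inhibition, against 674, 696 and 701 CPM in control libraries.

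The cofactors of these chaperones rose as well. Creld2, a disulfide isomerase-like secreted protein, had 124, 125 and 133 CPM in inhibition libraries, against 49.8, 47.9 and 49.0 CPM in control libraries (1.38, SE 0.045). Manf had 900, 913 and 902 CPM in inhibition and 499, 493 and 483 CPM in control libraries (0.88, SE 0.026). Sdf2l1, a partner of BiP and its J proteins, rose by 1.15 (SE 0.048). The 3 ER J proteins, which deliver clients to BiP, all rose. Dnajb9 had 268, 235 and 254 CPM in inhibition and 131, 132 and 134 CPM in control libraries (0.93, SE 0.045). Dnajc3 rose by 0.99 (SE 0.039) and Dnajb11 by 0.57 (SE 0.040).

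At the entry to the ER, Ssr1, a subunit of the translocon-associated protein complex, had 2777, 2563 and 2688 CPM in inhibition and 1238, 1250 and 1226 CPM in control libraries (1.11, SE 0.032). Sec61b, of the channel itself, had 359, 396 and 361 CPM in inhibition and 333, 336 and 337 CPM in control libraries (0.15, SE 0.036). Every library of the inhibition group was above every control library for both genes, although the size of the change differed widely.

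Genes of ER-associated degradation, which returns misfolded proteins to the cytosol for the proteasome, did not move as a block. Edem1, which marks misfolded glycoproteins for removal, rose by 0.94 (SE 0.048). Herpud1, a scaffold of the degradation complex, had 141, 139 and 139 CPM in inhibition, against 127, 133 and 133 CPM in control libraries (0.09, SE 0.032, adjusted p = 0.0154). Without control replicate 1 that call was lost (0.06, adjusted p = 0.142), and likewise without inhibition replicate 2 (0.08, adjusted p = 0.0564). Syvn1 (HRD1), the ubiquitin ligase of the complex, fell by 0.56 (log2; SE 0.084) with 7.37, 7.47 and 7.29 CPM in inhibition and 11.1, 10.7 and 10.8 CPM in control libraries. Exons of Syvn1 and of Mrpl49, on opposite strands, share 91 bases, and Mrpl49 held 10301 counts over the 9 libraries against 1495 for Syvn1. Without a strand-specific step in the stated protocol, reads in that stretch cannot be told apart. Sel1l, the partner of Syvn1, had 30.1 ± 0.774 CPM in inhibition and 20.2 ± 0.194 CPM in control libraries (0.57, SE 0.23, adjusted p = 0.0325). In that fit 1 spermidine library, described below, stood apart, and in a fit of the inhibition and control libraries alone the adjusted p was 2.1e-07 (0.59). With all groups in the fit the call was lost with each of the 6 inhibition and control libraries left out in turn (adjusted p 0.0570 to 0.0799) and under DESeq2 (adjusted p = 0.187).

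**Figure D3:**
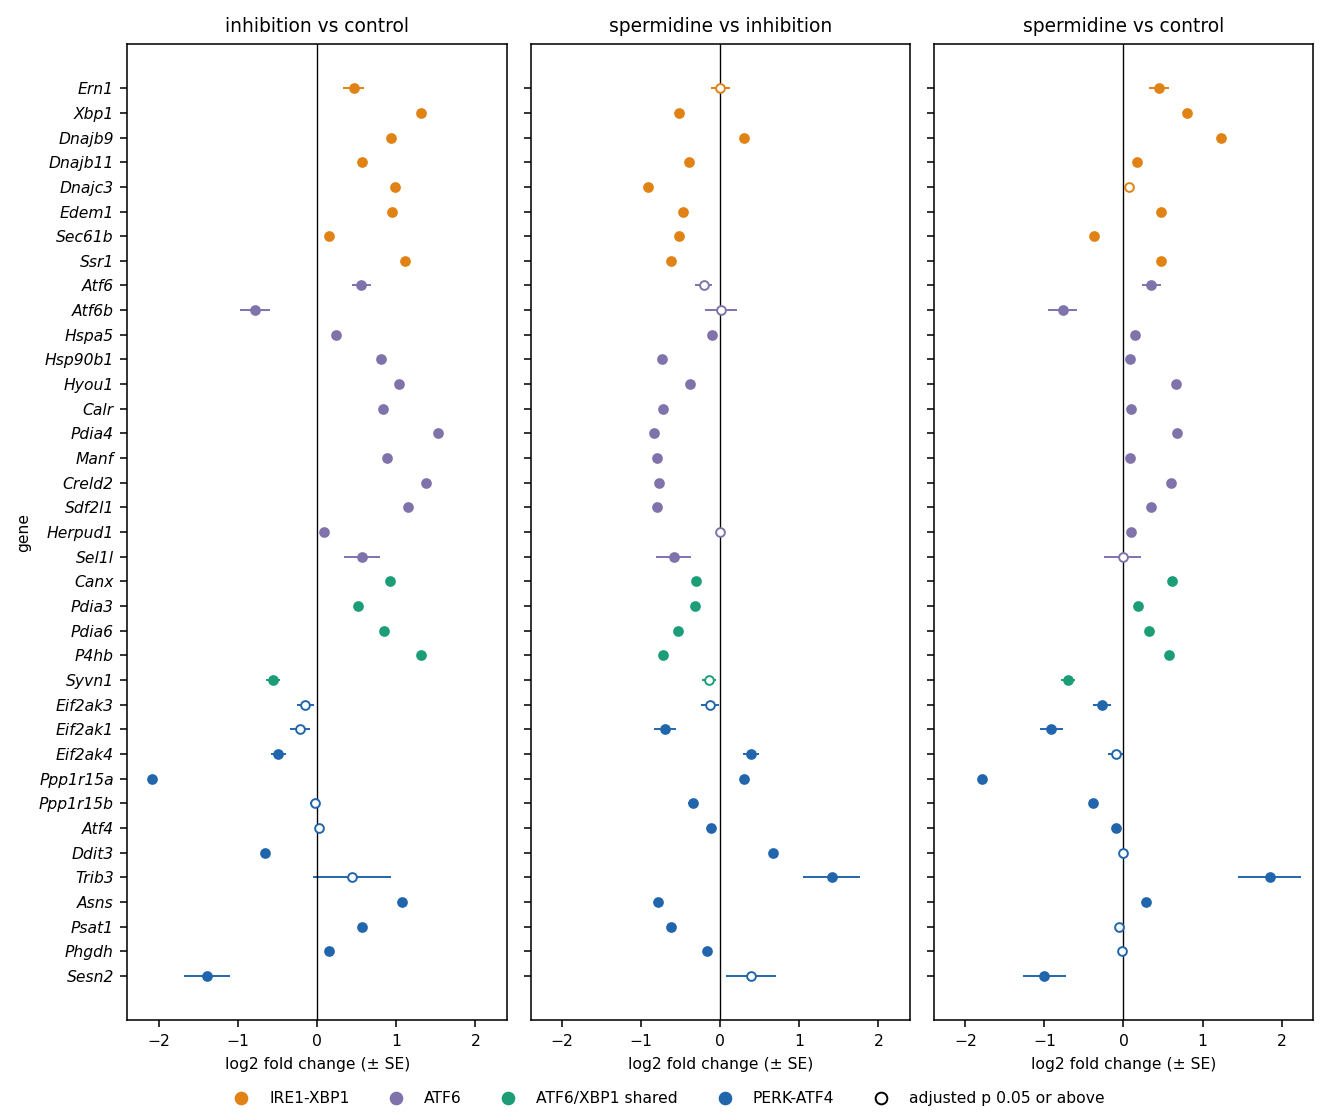
log2 fold change with its standard error (edgeR) for the 37 tested genes, coloured by branch, in the 3 comparisons; open points did not pass an adjusted p of 0.05. ER genes other than Atf6b and Syvn1 lie to the right of 0 in inhibition against control, and most lie to the left in spermidine against inhibition, with Dnajb9 to the right in all 3, and PERK-ATF4 genes lie on both sides.

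In the PERK-ATF4 group, Atf4 and 2 of the 3 kinases did not pass. Atf4 had 109, 113 and 112 CPM in inhibition libraries, against 110, 108 and 111 CPM in control libraries (log2 fold change 0.02, 95% interval -0.04 to 0.09), and the groups overlap. Eif2ak3 (PERK; -0.15, adjusted p = 0.260) and Eif2ak1 (HRI; -0.22, adjusted p = 0.143) did not pass, although Eif2ak1 passed without control replicate 2 (-0.34, adjusted p = 0.0335) or without inhibition replicate 3 (-0.35, adjusted p = 0.0358). Exons of Eif2ak1 share 487 bases with Aimp2 on the other strand, which held 31062 counts against 1325 for Eif2ak1, so its counts are uncertain. Eif2ak4 (GCN2) fell by 0.49 (SE 0.10).

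The largest change of the 38 genes was a fall in Ppp1r15a (GADD34), the inducible phosphatase subunit that reverses eIF2 phosphorylation. It had 46.9, 48.6 and 47.4 CPM in inhibition libraries, against 207, 202 and 201 CPM in control libraries (log2 fold change -2.09, SE 0.034, adjusted p = 3.9e-18). The constitutive subunit Ppp1r15b had 25.4 ± 0.939 CPM in inhibition and 26.0 ± 1.17 CPM in control libraries (-0.03, 95% interval -0.14 to 0.08). Ddit3 (CHOP), a pro-apoptotic transcription factor, had 57.6, 54.7 and 58.7 CPM in inhibition and 94.6, 86.5 and 88.3 CPM in control libraries (-0.66, SE 0.045). Inhibition libraries were below all control libraries for Ppp1r15a and Ddit3. Ppp1r15a is also known as a gene induced by the handling of tissue, and the immediate early genes Jun, with 73.4 to 76.7 CPM in inhibition and 321 to 329 CPM in control libraries, and Egr1, with 17.2 to 20.2 CPM in inhibition and 78.1 to 84.5 CPM in control libraries, moved with them. Fos, another immediate early gene, fell less, with 289 to 303 CPM in inhibition and 480 to 497 CPM in control libraries. The part of handling was not tested.

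Among the metabolic targets of ATF4, Asns (asparagine synthetase) had 44.8, 45.2 and 45.6 CPM in inhibition and 21.4, 21.9 and 21.2 CPM in control libraries (1.07, SE 0.049, adjusted p = 3.2e-12). The serine synthesis genes Psat1 (0.57, SE 0.055) and Phgdh (0.15, SE 0.049) rose too, and the call of Phgdh was lost without control replicate 1 (0.11, adjusted p = 0.0756). Sesn2, a stress-induced inhibitor of mTORC1, fell to 8, 10 and 12 counts in inhibition, against 18, 23 and 31 counts in control libraries (-1.39, SE 0.29). Trib3, a pseudokinase that restrains ATF4 and CHOP, had 9, 6 and 9 counts in inhibition and 9, 3 and 4 in control libraries, too few for a call (0.44, 95% interval -0.53 to 1.40).

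The next comparison asked what changed when spermidine was given to mice with the same inhibition. ER chaperone genes were lower in spermidine than in inhibition libraries, while Dnajb9, Ddit3, Ppp1r15a, Eif2ak4 and Trib3 were higher. Of the 37 genes 5 rose and 25 fell, where 29.1% of all tested genes rose and 28.9% fell. By branch, 1 XBP1 gene rose and 6 fell, 9 ATF6 genes and 4 jointly driven genes fell and none of either rose, and 4 PERK-ATF4 genes rose and 6 fell. The median log2 fold change was -0.49 for XBP1, -0.66 for ATF6, -0.32 for jointly driven and -0.12 for PERK-ATF4 genes, against 0.03 for all tested genes. The PERK-ATF4 median turned to 0.14 with total count scaling and 0.12 on log2(TPM + 1), and on that last scale the jointly driven median was 0.00. None of the falls reached 2-fold (3.24% of all tested genes fell so far), and Trib3 was the 1 gene that rose so far (9.45% of all tested genes did). This comparison shares its inhibition libraries with the comparison above and its spermidine libraries with the one that follows, so the 3 are not independent. The plasma cell and neutrophil granule sums were also lower in spermidine than in inhibition libraries, with 10 of 14 and 15 of 15 tested genes falling, and their part was not tested.

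The scale sets how large this fall is. With scaling by total count alone, log2 fold changes of spermidine against inhibition moved up by 0.26 at the median gene, and 8 of the 37 genes rose and 18 fell. Over all genes, 81.1% of calls were then higher, against 50.2% with TMM scaling. On log2(TPM + 1) with limma, 9 rose and 14 fell. The summed deposited TPM of the 12 ATF6 genes, for which no scaling is added, was 1505, 1496 and 1477 in spermidine, 1902, 1858 and 1904 in inhibition and 988, 1000 and 986 in control libraries. On that scale too the sums of the spermidine libraries lie between the other groups without overlap. Manf made up much of them, with means of 752 TPM in spermidine, 1070 TPM in inhibition and 515 TPM in control libraries. Hspa5 (248 against 216 TPM) and Herpud1 (88.7 against 69.4 TPM) had higher means in spermidine than in inhibition libraries, as did Atf6 and Atf6b. The sum therefore does not describe each gene of the branch.

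The largest fall of the 37 tested genes was that of Dnajc3. It had 111, 106 and 103 CPM in spermidine libraries, against 198, 211 and 197 CPM in inhibition libraries (log2 fold change -0.92, SE 0.038, adjusted p = 6.72e-12). Manf had 527, 520 and 513 CPM in spermidine, against 900, 913 and 902 CPM in inhibition libraries (-0.80, SE 0.026). Hsp90b1 had 319, 298 and 309 CPM in spermidine, against 517, 505 and 522 CPM in inhibition libraries (-0.74, SE 0.031). No spermidine library reached the level of an inhibition library in any of these genes. Pdia4 fell by 0.84 (SE 0.045), Sdf2l1 by 0.80 (SE 0.046), Creld2 by 0.78 (SE 0.042), and P4hb and Calr each by 0.73 (SE 0.029 and 0.031). Xbp1 had 99.0, 98.6 and 98.7 CPM in spermidine, against 138, 146 and 140 CPM in inhibition libraries (-0.52, SE 0.032). Sec61b fell by the same 0.52 (SE 0.036), to 256, 266 and 259 CPM in spermidine, against 359, 396 and 361 CPM in inhibition libraries.

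The sensors of the IRE1 and ATF6 branches did not pass, with Ern1 at -0.00 (95% interval -0.24 to 0.24), Atf6 at -0.21 (-0.43 to 0.02) and Atf6b at 0.01 (-0.37 to 0.40), although Atf6 passed without inhibition replicate 2 (-0.31, adjusted p = 0.0473). Syvn1 did not pass either (-0.14, 95% interval -0.31 to 0.03).

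Some ER genes did not share the fall, or did so on 1 scale. Dnajb9, an XBP1 target that binds IRE1 and returns it to rest, rose further, with 320, 293 and 319 CPM in spermidine and 268, 235 and 254 CPM in inhibition libraries (0.30, SE 0.043, adjusted p = 1.96e-05). Its spermidine libraries were all above its inhibition libraries. Herpud1 had 139, 143 and 139 CPM in spermidine and 141, 139 and 139 CPM in inhibition libraries (0.00, 95% interval -0.06 to 0.07), but was higher with total count scaling (0.26, adjusted p = 5.58e-06). Hspa5 had 619, 600 and 601 CPM in spermidine and 655, 636 and 655 CPM in inhibition libraries (-0.10, SE 0.026), and its direction turned with total count scaling (0.16) and on log2(TPM + 1) (0.20). The falls of Canx (-0.31) and Pdia3 (-0.32) were lost with total count scaling (-0.05 and -0.06). Those of Dnajb11 (-0.40, SE 0.039) and Hyou1 (-0.38, SE 0.049) were lost on log2(TPM + 1) (-0.03 and -0.07), as was that of Edem1, which fell by 0.47 (SE 0.045) on counts (0.10 on log2(TPM + 1), adjusted p = 0.445). Sel1l had 23.5, 26.4 and 8.13 CPM in spermidine, against 31.0, 29.8 and 29.5 CPM in inhibition libraries (-0.59, SE 0.22). The third spermidine library stands apart, and without it the difference was -0.27 (adjusted p = 0.00173).

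**Figure D4:**
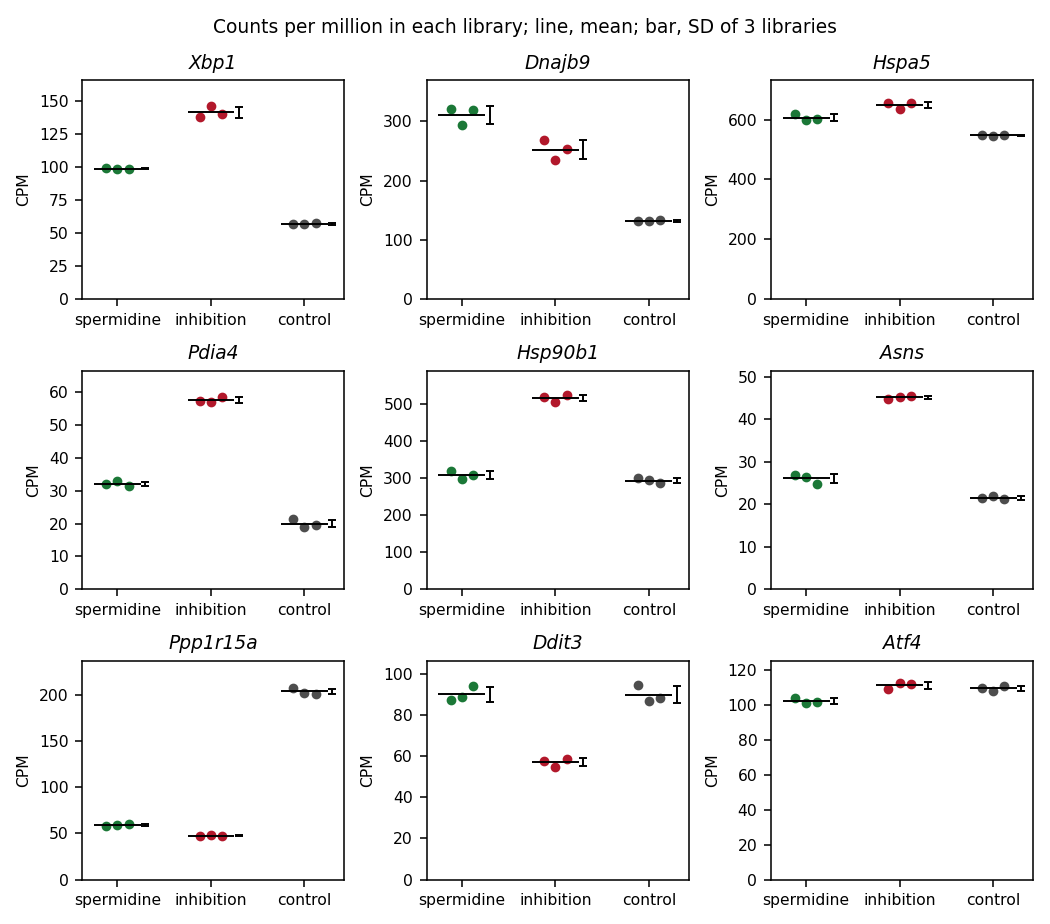
CPM of 9 of the 38 genes in each library (points), with the mean (line) and SD (bar) of the 3 libraries of a group, axes from 0. Xbp1, Pdia4, Hsp90b1 and Asns are highest in inhibition libraries, Dnajb9 in spermidine libraries and Ppp1r15a in control libraries, while Ddit3 is lowest in inhibition libraries.

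Of the 4 PERK-ATF4 genes that fell in inhibition against control, Ddit3, Ppp1r15a and Eif2ak4 were higher with spermidine than without it. Both comparisons use the same inhibition libraries, so picking genes by a fall in the first favours a rise in the second. Ddit3 had 87.2, 88.8 and 94.2 CPM in spermidine, against 57.6, 54.7 and 58.7 CPM in inhibition libraries (0.66, SE 0.044, adjusted p = 2.86e-09). Ppp1r15a had 57.6, 59.2 and 59.6 CPM in spermidine and 46.9, 48.6 and 47.4 CPM in inhibition libraries (0.30, SE 0.036). Both genes were higher in every spermidine library. Eif2ak4 rose by 0.39 (SE 0.098), and Trib3 had 28, 30 and 16 counts in spermidine, against 9, 6 and 9 in inhibition libraries (1.41, SE 0.36). Sesn2 did not pass (0.39, 95% interval -0.24 to 1.02). Jun (0.50, SE 0.036), Egr1 (0.66, SE 0.076) and Fos (0.34, SE 0.03) rose in the same comparison.

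Among the metabolic ATF4 targets, Asns and Psat1 fell. Asns had 27.0, 26.5 and 24.8 CPM in spermidine, against 44.8, 45.2 and 45.6 CPM in inhibition libraries (-0.79, SE 0.046, adjusted p = 5.37e-10). Psat1 had 24.1, 26.4 and 24.8 CPM in spermidine, against 39.2, 36.7 and 40.3 CPM in inhibition libraries (-0.62, SE 0.053). The groups do not overlap in either gene. Eif2ak1 fell by 0.70 (SE 0.14) and Ppp1r15b by 0.35 (SE 0.056), both lost on log2(TPM + 1) (adjusted p = 0.216 and 0.734). Atf4 (-0.12, SE 0.032) and Phgdh (-0.17, SE 0.048) were slightly lower by TMM scaling. By total count Atf4 was higher (0.14) and Phgdh did not pass (0.09, adjusted p = 0.152), and on log2(TPM + 1) both were higher (0.19 and 0.14).

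Spermidine libraries were last set against control libraries. Of the 25 ER genes, 6 of 8 XBP1 genes, 10 of 12 ATF6 genes and 4 of 5 jointly driven genes were above control, while of 12 PERK-ATF4 genes 2 were higher and 6 lower. Of 37 genes 22 rose and 9 fell, where 41.0% of all tested genes rose and 37.1% fell. On TPM the number that fell was 4 with a pseudocount of 1 and 3 with a pseudocount of 0.1. At least 2-fold higher were Dnajb9 and Trib3 (20.7% of all tested genes rose so far), and Ppp1r15a was at least 2-fold lower (12.2% of all tested genes). The median log2 fold change was 0.46 for XBP1, 0.12 for ATF6, 0.32 for jointly driven and -0.10 for PERK-ATF4 genes, against 0.06 for all tested genes. The PERK-ATF4 median turned to 0.16 with total count scaling and 0.17 on log2(TPM + 1). The ATF6 median was 0.38 with total count scaling and 0.55 on log2(TPM + 1), so the distance left to control depended on the scale. With total count scaling 67.6% of all calls in this comparison were higher, against 52.5% with TMM scaling, and the median gene moved up by 0.26.

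Dnajb9 was furthest above control among ER genes, with 320, 293 and 319 CPM in spermidine and 131, 132 and 134 CPM in control libraries (log2 fold change 1.23, SE 0.045, adjusted p = 1.7e-13). Xbp1 was higher by 0.80 (SE 0.035), Pdia4 by 0.68 (SE 0.051), Hyou1 by 0.66 (SE 0.052), Canx by 0.61 (SE 0.030) and Creld2 by 0.60 (SE 0.046). Hsp90b1 (0.08), Calr (0.09), Manf (0.08) and Herpud1 (0.10) passed by small margins, and each call was lost without the low-count filter and with 1 of several libraries left out. For Hsp90b1 those were any control library, spermidine replicate 1 or spermidine replicate 3, for Calr and Manf control replicate 2 or 3, and for Herpud1 control replicate 1 or spermidine replicate 2. The values without them lay between 0.04 and 0.08. Dnajc3 had 111, 106 and 103 CPM in spermidine and 99.0, 101 and 105 CPM in control libraries (0.07, 95% interval -0.01 to 0.14), and was higher with total count scaling (0.33, adjusted p = 2.24e-06). Sel1l did not pass (-0.01, SE 0.23), and without spermidine replicate 3 it was higher (0.30, adjusted p = 0.000574).

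Ddit3 in spermidine libraries stood at the control level by TMM scaling, with 87.2, 88.8 and 94.2 CPM in spermidine and 94.6, 86.5 and 88.3 CPM in control libraries (0.00, 95% interval -0.08 to 0.09), and above it by total count (0.27, adjusted p = 1.53e-05). Ppp1r15a remained lower, with 57.6, 59.2 and 59.6 CPM in spermidine and 207, 202 and 201 CPM in control libraries (-1.79, SE 0.033). Eif2ak1 (-0.91, SE 0.14), Atf6b (-0.77, SE 0.18), Syvn1 (-0.70, SE 0.084) and Ppp1r15b (-0.38, SE 0.056) were lower too, but on log2(TPM + 1) the calls of Eif2ak1 (-0.22, adjusted p = 0.0780) and Atf6b (-0.13, adjusted p = 0.120) were lost and Ppp1r15b was higher (0.16). Sesn2 was lower as well, with 15, 20 and 10 counts in spermidine and 18, 23 and 31 counts in control libraries (SE of the log2 fold change 0.27). Sec61b was lower by 0.37 (log2; SE 0.036) on counts and not lower on log2(TPM + 1) (0.07, adjusted p = 0.133). The weak calls of Atf6 (0.35, adjusted p = 0.0162) and Eif2ak3 (-0.27, adjusted p = 0.0350) were lost under DESeq2 (adjusted p = 0.0528 and 0.147). Leaving out control replicate 1 (0.24), control replicate 2 (0.32) or spermidine replicate 1 (0.32) also ended the call of Atf6, and leaving out control replicate 3 (-0.20), spermidine replicate 1 (-0.25) or spermidine replicate 3 (-0.28) that of Eif2ak3.

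Other genes of the same pathways were drawn from 2 lists of ER folding and transport genes and of integrated stress targets. Of 49 tested ER folding and transport genes 27 rose and 8 fell in inhibition against control, with a median log2 fold change of 0.25. These are 55.1% and 16.3% of the list, where 36.2% of all tested genes rose and 36.1% fell. In spermidine against inhibition 3 rose and 37 fell (6.12% and 75.5%, against 29.1% and 28.9% of all tested genes; median -0.33). In spermidine against control 15 rose and 23 fell (30.6% and 46.9%, against 41.0% and 37.1% of all tested genes, with a median of -0.05). The counts and medians of the 2 lists are by TMM scaling alone. With total count scaling the median of all tested genes moved up by 0.26 in each comparison with spermidine. Neither list was counted again on that scale, so the size of its falls with spermidine depends on the scaling. Serp1, which stabilises membrane proteins at the translocon, had 290, 285 and 275 CPM in spermidine, 576, 549 and 546 CPM in inhibition and 173, 176 and 184 CPM in control libraries. It rose by 1.65 (SE 0.034) in inhibition against control and fell by 0.97 (SE 0.033) in spermidine against inhibition. Ero1a, the oxidase that recharges the disulfide isomerases, fell by 1.01 (SE 0.039) to 43.6 ± 1.51 CPM in spermidine libraries, against 88.0 ± 1.70 CPM in inhibition libraries (SD, n = 3 each). Ssr3, of the same complex as Ssr1, and Tmed2, a cargo receptor of transport vesicles, each rose by 1.09 (SE 0.032 and 0.028) in inhibition against control.

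Members of that list that fell in inhibition against control included Fkbp2, an ER prolyl isomerase (-1.10, SE 0.054), Mbtps1, the protease that makes the first cut in ATF6 (-0.72, SE 0.064), and Uggt1, which reglucosylates misfolded glycoproteins (-0.62, SE 0.059). In spermidine against inhibition Mbtps1 rose (0.32, SE 0.065), as did Mbtps2, the second protease of ATF6 (0.27, SE 0.089). Derl1, a channel component of ER-associated degradation, was lower in spermidine than in control libraries (-0.53, SE 0.039).

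Of 36 tested integrated stress targets 11 rose and 16 fell in inhibition against control (median -0.21), which is 30.6% and 44.4% of the list against 36.2% and 36.1% of all tested genes. In spermidine against inhibition 8 rose and 16 fell (22.2% and 44.4%, against 29.1% and 28.9%; median -0.18), and in spermidine against control 13 rose and 18 fell (36.1% higher and 18 of 36 lower, against 41.0% and 37.1% of all tested genes; median -0.14). Cth (cystathionine gamma-lyase, an enzyme of cysteine synthesis) had 1.45, 1.92 and 1.33 CPM in spermidine, against 0.430, 0.623 and 0.450 CPM in inhibition libraries (1.62, SE 0.27, adjusted p = 8.18e-05). These rest on 36, 49 and 24 counts in spermidine and 7, 15 and 9 counts in inhibition libraries, so depth limits this gene. Atf3, a stress-induced transcription factor, had 57.7, 61.2 and 56.9 CPM in spermidine, 35.0, 33.5 and 31.8 CPM in inhibition and 55.2, 54.7 and 57.0 CPM in control libraries. Its order of groups was that of Ddit3, with a fall of 0.74 (log2; SE 0.047) in inhibition against control and a rise of 0.81 (SE 0.046) in spermidine against inhibition. Gdf15, a secreted stress cytokine, had 18.0, 18.8 and 19.4 CPM in spermidine, 6.20, 7.97 and 8.44 CPM in inhibition and 15.5, 15.3 and 13.9 CPM in control libraries, so its inhibition libraries were again the lowest. Tnfrsf10b, a death receptor gene induced by CHOP, fell in inhibition against control (-1.63, SE 0.076), as did Gadd45a, a growth arrest gene (-0.63, SE 0.047). In spermidine against inhibition the falls with the smallest p were those of Eif2s1 (-0.43, SE 0.028), Gadd45a (-0.52, SE 0.05) and Gars (-0.75, SE 0.074). Eif2s1, though on this list, encodes a subunit of eIF2 itself. On TPM its groups overlap, with 152, 169 and 152 TPM in spermidine and 172, 185 and 165 TPM in inhibition libraries. Slc7a11, the cystine transporter, had 9.99, 10.1 and 9.46 CPM in spermidine, 14.1, 15.4 and 13.6 CPM in inhibition and 3.64, 2.57 and 3.66 CPM in control libraries (2.13, SE 0.11, in inhibition against control). Vldlr, a lipoprotein receptor, had 38.2, 34.5 and 37.8 CPM in inhibition, against 1.21, 0.697 and 0.567 CPM in control libraries. It changed by 0.18 (SE 0.061) in spermidine against inhibition. Nupr1 rose by 1.44 (SE 0.048) in inhibition against control and fell by 0.33 (SE 0.043) in spermidine against inhibition. On TPM the last 2 groups overlap for Nupr1, with 103 ± 4.34 TPM in spermidine and 104 ± 3.94 TPM in inhibition libraries (SD, n = 3 each).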

How the data were processed

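The authors deposited estimated counts per gene and TPM for the same 9 libraries. Per the submitters' processing notes, Trim Galore 0.6.2, STAR 2.6.1d, HTSeq 0.10.0, edgeR 3.24.3 and mm10 were used, with no step named for each. Of the deposited estimated counts 48.2% were whole to within 1e-06, so the step that made the others is not given in the sources used here; they are not scaled between libraries, and the smallest sum listed for a gene is 5. The deposited TPM values are scaled by the authors for length and depth.

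Estimated counts were rounded and tested in R 4.3.3 with the quasi-likelihood test of edgeR 4.0.16, fitting 1 mean for each group over the 9 libraries together, with TMM factors (0.931 to 1.14) and the default low-count filter. P-values were adjusted by Benjamini-Hochberg over 14461 genes, with a threshold of 0.05. CPM use the TMM factors, and TPM served only to compare levels between genes, for sums over branches and for limma 3.58.1 as an alternative. Other alternatives were DESeq2 1.42.0, total count scaling, scaling without genes of other cells, no low-count filter, 2 groups only, a replicate block and leaving out each library. The floor of 3 counts covers counting error only, since PCR copies are not independent molecules. Each SE of an edgeR log2 fold change was derived from the F statistic of the quasi-likelihood test, so it includes the spread between libraries. The 95% intervals of log2 fold changes are a normal approximation from that SE. Gene coordinates are 1-based, from GENCODE M21 (19437 identifiers matched, 17 did not), and promoter sequences from RefSeq on GRCm38.p6. The 38 genes, the pathway and marker lists and the immediate early genes were chosen with earlier results of these data known. From the 2 pathway lists, the genes named were taken from up to 3 higher and 3 lower in each comparison, by smallest p. These passed the threshold and their groups did not overlap, but not every gene picked in this way is named. Replicates differed from each other by more than counting noise.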

Additional observations from a re-analysis of the deposited data

How the results depend on the processing

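Counts of genes that rose or fell in inhibition against control held within 1.5 times under all alternatives, with 23 to 25 rising and 6 to 7 falling when 1 library was left out. In spermidine against inhibition, leaving out 1 library gave 5 rising and 24 to 25 falling, and in spermidine against control 18 to 22 rising and 8 to 9 falling. Over all genes there were 10081 to 10231 calls in inhibition against control, 7609 to 8050 calls in spermidine against inhibition, and 10869 to 11112 calls in spermidine against control. DESeq2 called 25 rising and 6 falling, 5 and 24, and 20 and 8 of the 37 genes in the 3 comparisons in that order.

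Total count scaling called 8 of the 37 genes higher in spermidine against inhibition. limma on log2(TPM + 1) and on log2(TPM + 0.1) called 9 higher and 14 lower under either pseudocount, and in spermidine against control 4 and 3 lower. Scaling without genes of other cells changed no call of the 37 genes. By construction, total count scaling and TPM do not use TMM factors, and beyond that the cause was not tested. Total count scaling turned the direction in spermidine against inhibition of Hspa5 (0.16), Atf4 (0.14), Phgdh (0.09) and the PERK-ATF4 median (0.14), and in spermidine against control of Atf4 (0.17), Psat1 (0.21), Phgdh (0.24) and that median (0.16). In the following, values are for a pseudocount of 1 and then 0.1. In inhibition against control limma turned Pdia3 (-0.19, -0.20), Ppp1r15b (0.18, 0.22) and the PERK-ATF4 median (0.00, 0.03). In spermidine against inhibition it turned Edem1 (0.10, 0.11), Hspa5 (0.20, 0.20), Canx (0.00, 0.00), Pdia3 (0.03, 0.03), Atf4 (0.19, 0.19), Phgdh (0.14, 0.15), the jointly driven median (0.00, 0.00) and the PERK-ATF4 median (0.12, 0.18). In spermidine against control it turned Sec61b (0.07, 0.07), Pdia3 (-0.17, -0.17), Eif2ak3 (0.08, 0.13), Ppp1r15b (0.16, 0.19), Atf4 (0.29, 0.30), Phgdh (0.37, 0.39) and the PERK-ATF4 median (0.17, 0.24). Sel1l turned in spermidine against control without spermidine replicate 3 (0.30) and was lowest without spermidine replicate 2 (-0.30). Another 43 values changed sign while passing under neither setting.

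Libraries that share only a replicate number correlated in their residuals, over all tested genes, at -0.0365 to 0.0526. That gives no sign of a broad pairing by number, but a pairing that touched few genes would not show in it. With a replicate block 26 genes rose and 6 fell in inhibition against control, 5 and 25 in spermidine against inhibition, and 22 and 8 in spermidine against control, where Eif2ak3 was lost (-0.27, adjusted p = 0.0501). Depth limits Trib3, Sesn2 and Chac1, with at most 31 counts in a library, and Cth of the pathway lists, with at most 49.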
